A study of Mus musculus with 75 samples.

Results

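The 10 genes described here mark fibroblasts of the mouse lung. Tcf21, Npnt, Inmt, Ces1d, Limch1 and Plin2 were taken as markers of alveolar fibroblasts, and Pi16, Dpp4, Cd248 and Ly6a as markers of adventitial fibroblasts. They were chosen by name as known markers of these cells, with earlier results of these data known. They are 10 of the 55536 genes counted, and all 10 were among the 16221 genes with enough reads to be tested. RNA was sequenced from the inferior lung lobe of 75 male C57BL/6JRj mice, 1 library per mouse. Bleomycin (BLEO), an antibiotic that injures the lung and is followed by fibrosis, had been instilled into the trachea a single time at 12 to 14 weeks of age, and BLEO-IPF mice were terminated after 7 days (d7, 10 mice), 14 (d14), 21 (d21), 28 (d28) or 35 days (d35, 12 mice each) or 42 days (d42, 7 mice). The 10 control mice (CTRL) are labelled saline, while the treatment note given with the same samples calls them untreated. They are listed with the same age of 12 to 14 weeks and without a day of termination. Each BLEO-IPF group holds only mice that had lost 5 to 17% of body weight by day 6 and that lived to their day of termination, and the lungs were lavaged before the lobe was taken.

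Alveolar fibroblasts lie in the walls between air spaces, beside the alveolar epithelium and capillaries, and part of them store lipid. Adventitial fibroblasts form the cuffs around larger vessels and airways and are often described as a reservoir of fibroblasts. In injured lung, cells of the fibroblast lineage can take on a matrix-producing state with high collagen expression. Several of the markers are shared with other cells of the lung: nephronectin, Limch1 and Dpp4 are also made by epithelial cells, Plin2 by macrophages and alveolar type 2 cells, Cd248 by pericytes, and Ly6a by endothelial and blood cells. Levels in whole-lobe RNA are shares of a library. Fewer cells of a type, less RNA per cell and more RNA from other cells therefore cannot be told apart.

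Tcf21 is a basic helix-loop-helix transcription factor, a class of protein that binds the E-box (CANNTG), and 7 of the 10 markers had entries in the RefSeq promoter table of GRCm38.p6. The stretches below are shown because they belong to the transcription factor itself, the alveolar marker with the most negative log2FC at d14 (Inmt), the alveolar marker that rose (Plin2) and the adventitial marker with the most negative log2FC at d14 (Dpp4). Each runs 5′ to 3′ on the minus strand from 250 bases before the RefSeq start and stops at the start or at the outer border of the annotated gene, and E-boxes are in capitals. The Tcf21 stretch is chr10:22820175-22820393, that of Inmt chr6:55175044-55175240, that of Plin2 chr4:86670061-86670309 and that of Dpp4 chr2:62412232-62412481.
Tcf21: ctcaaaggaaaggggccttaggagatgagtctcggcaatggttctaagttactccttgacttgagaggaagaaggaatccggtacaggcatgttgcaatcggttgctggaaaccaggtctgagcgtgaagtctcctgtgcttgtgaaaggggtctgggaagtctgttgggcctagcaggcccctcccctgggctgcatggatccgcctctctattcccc
Inmt: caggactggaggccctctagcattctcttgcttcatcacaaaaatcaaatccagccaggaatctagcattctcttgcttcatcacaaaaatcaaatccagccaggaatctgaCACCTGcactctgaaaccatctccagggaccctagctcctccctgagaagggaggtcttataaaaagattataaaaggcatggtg
Plin2: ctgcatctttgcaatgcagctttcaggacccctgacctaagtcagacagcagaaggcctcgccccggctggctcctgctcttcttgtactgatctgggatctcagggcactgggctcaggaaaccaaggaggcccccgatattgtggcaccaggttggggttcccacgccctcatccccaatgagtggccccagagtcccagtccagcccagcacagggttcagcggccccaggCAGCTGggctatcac
Dpp4: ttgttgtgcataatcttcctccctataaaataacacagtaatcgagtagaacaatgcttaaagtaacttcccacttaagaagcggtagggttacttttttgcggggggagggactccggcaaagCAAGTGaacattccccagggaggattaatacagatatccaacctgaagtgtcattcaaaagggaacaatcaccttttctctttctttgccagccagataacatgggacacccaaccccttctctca

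No E-box lay in the 250 bases before the Tcf21 start, 1 lay 16 bases before the Plin2 start and 1 lay 126 bases before the Dpp4 start. Inmt had 2, at 138 and 14 bases before its start, of which the nearer lies inside the annotated gene and is not printed. E-boxes were found in 66.2% of the 32851 windows of this length, so that holding an E-box is common. Searched on both strands, an interferon-stimulated element (GAAA, any 2 bases and GAAA), found in 2.98% of windows, lay 52 bases before the Dpp4 start and in no other window of a marker. The letters TATAAA, found in 12.4% of windows, lay at 80 and 69 bases before the Inmt start, at 227 before that of Dpp4 and at 76 before 1 of the Limch1 starts. The CCAAT box, in 33.8% of windows, was found 73 bases before the Plin2 start, 59 before another Limch1 start and 64 before that of Pi16. E-boxes also lay before 1 start of Npnt and before 2 starts of Limch1. Of the other motifs searched, the SMAD motif (CAGACA, 17.1% of windows) lay 208 bases before the Plin2 start. The TEAD motif (CATTCC, 12.6%) lay 118 bases before that of Dpp4. The gamma-activated site (7.02%) and the PPAR direct repeat (0.0335%) were found in no window of a marker. All these matches describe the letters only.

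Library totals ranged from 9240291 to 14665247 counts with a median of 10677163, and the markers themselves held between 70 counts (Pi16) and 29892 counts (Inmt) per library. Within groups, the correlation of a library's log2 values with the median of its group lay between 0.958 and 0.994, lowest at d28. Levels are given as CPM, counts scaled to the TMM-adjusted size of the library, and fold changes as log2FC ± SE. Tests are edgeR's quasi-likelihood test over all genes, with p-values adjusted by the Benjamini-Hochberg method and called at 0.05. The SE is the absolute log2FC divided by the square root of the F statistic of this test. All comparisons with CTRL share the same 10 control mice. No day of termination is given for these, so they are not known to match any BLEO-IPF day in time.

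In CTRL mice, the median level per kb of exon fell in the order Inmt (1167 CPM per kb), Ces1d (327), Ly6a (321), Npnt (214), Limch1 (111), Tcf21 (49.1), Plin2 (29.3), Dpp4 (25.04), Cd248 (6.604) and Pi16 (4.58). Per unit of length, Cd248 and Pi16 were thus the scarcest of the 10 transcripts in healthy lung. By d14 the median of Inmt had fallen to 276 CPM per kb, below that of Ly6a at 424, while Cd248 stood at 18.5.

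**Figure D1:**
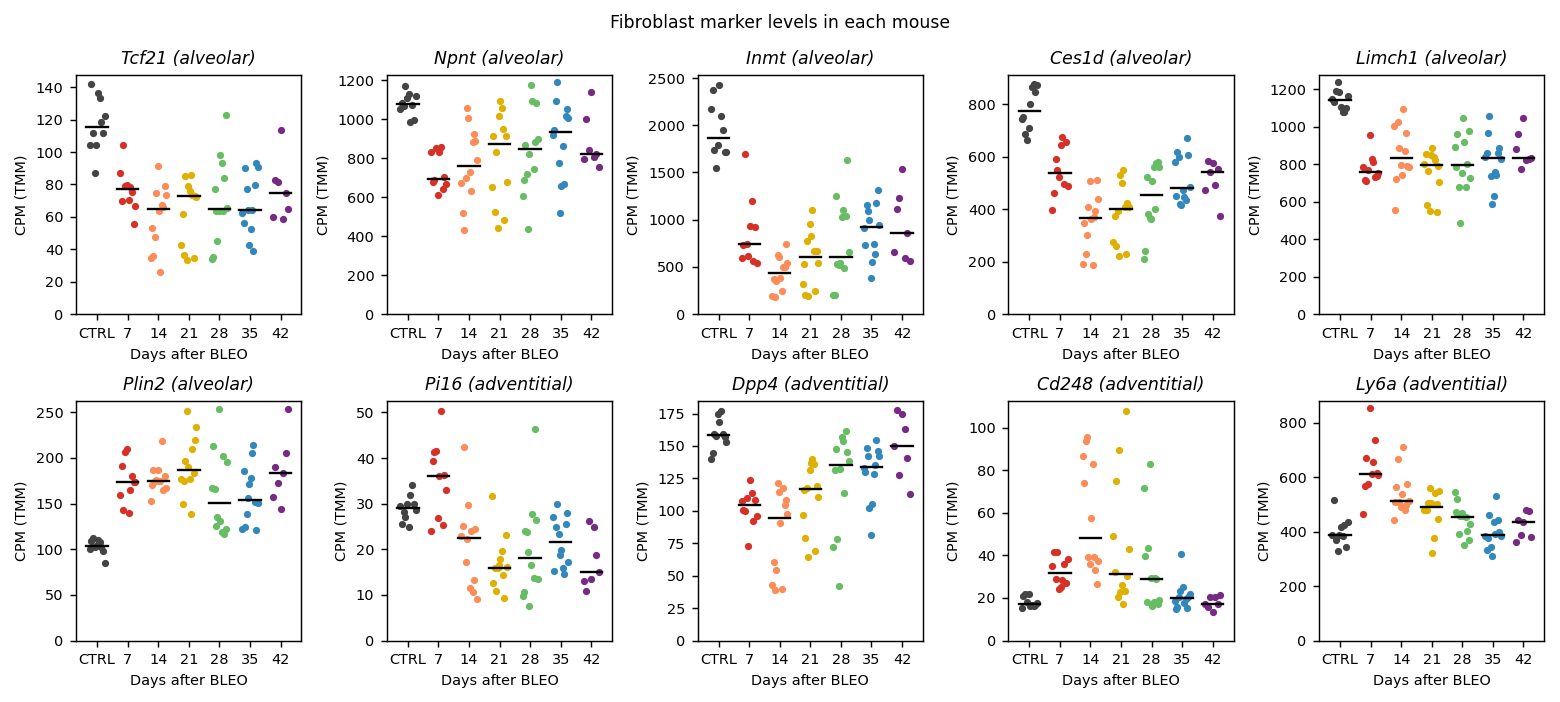
Level of each fibroblast marker in every mouse. The vertical axis is CPM after TMM scaling, starting at 0, the horizontal axis the group (CTRL or days after BLEO), each point a mouse and each bar the group median. Inmt lies lowest at d14, Plin2 lies above all CTRL mice in every BLEO-IPF group, and Cd248 reaches its highest median at d14 and overlaps CTRL from d21 on.

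At d7 after BLEO, 9 of the 10 markers were called against CTRL, where 45.8% of all genes were called, with 3 higher (24.8% of all genes) and 6 lower (21.0%). At d14 all 10 were called (62.4% of all genes), 3 higher (32.4%) and 7 lower (29.9%), and at d21 again all 10 (54.2%), with the same split of 3 higher (28.3%) and 7 lower (25.8%). At d28 the count was 8 (43.3%), 2 higher (24.1%) and 6 lower (19.2%). At d35, 5 markers were called (29.9%), 1 higher (16.9%) and 4 lower (13.1%), all of them alveolar. A fit on only the 12 mice of d35 and the CTRL mice called 8. At d42, 6 were called (24.7%), 1 higher (13.7%) and 5 lower (11.0%).

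Complete separation from the 10 CTRL mice was rarer. Above all CTRL mice lay every mouse for 2 markers at d7 (7.39% of all genes), 2 at d14 (9.46%), 1 at d21 (6.84%), 1 at d28 (2.1%), 1 at d35 (2.43%) and 1 at d42 (4.22%). Below all CTRL mice lay every mouse for 3 markers at d7 (3.8%), 3 at d14 (6.15%), 4 at d21 (4.85%), 2 at d28 (1.34%), 2 at d35 (1.34%) and 3 at d42 (3.37%).

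The alveolar markers Tcf21, Inmt, Ces1d and Limch1 were lower than CTRL on all 6 days and Npnt on the first 4 days, whereas Plin2 was higher on all 6. Their median log2FC was -0.55 at d7, -0.73 at d14, -0.75 at d21 and -0.49 at d42, while the median of all genes tested lay between -0.0024 and 0.018. The adventitial markers did not move together. Dpp4 was called lower on d7, d14 and d21, Pi16 on d14, d21, d28 and d42, Cd248 was called higher on d7 to d28 and Ly6a on d7 to d21. Their median log2FC was 0.48 at d7, -0.013 at d14 and -0.051 at d42.

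**Figure D2:**
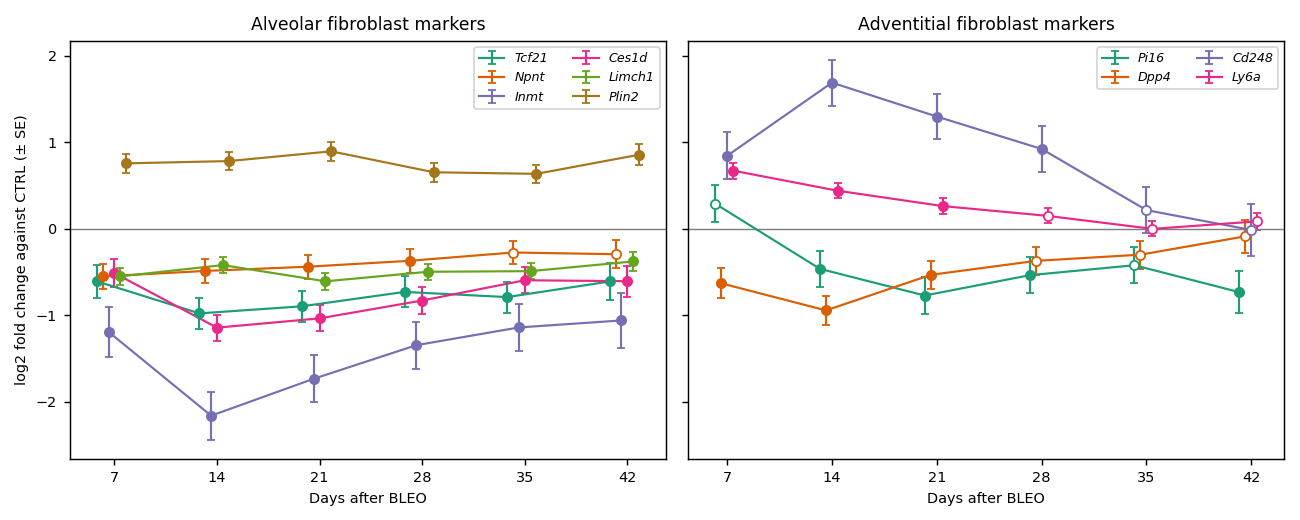
Fold change of the alveolar (left) and adventitial (right) fibroblast markers against CTRL. The vertical axis is log2FC with SE bars calculated from the edgeR F statistic, and the horizontal axis days after BLEO. Filled points passed an adjusted p of 0.05 and open points did not. Inmt is lowest at -2.16 and Cd248 highest at 1.69, both at d14, and Plin2 stays between 0.63 and 0.89.

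Tcf21 (ENSMUSG00000045680, chr10:22817281-22820174, minus strand) encodes a transcription factor of the lung mesenchyme and is often used to mark lipid-bearing alveolar fibroblasts. The lowest, median and highest CPM of Tcf21 were 86.8, 115 and 142 in CTRL, 55.8, 77.05 and 104 at d7 and 25.9, 64.96 and 91.6 at d14. They were 33.4, 72.8 and 85.9 at d21, 34.1, 64.7 and 123 at d28, 39.2, 64.04 and 93.5 at d35 and 58.97, 74.5 and 114 at d42. Every BLEO-IPF group was centred below CTRL, all 12 mice of d21 lay below the lowest CTRL mouse, and the other groups overlapped with CTRL in part. The log2FC was -0.61 ± 0.19 (adjusted p = 0.00583) at d7, -0.98 ± 0.18 (adjusted p = 3.09e-06) at d14, -0.90 ± 0.18 (adjusted p = 2.19e-05) at d21, -0.73 ± 0.18 (adjusted p = 0.000654) at d28, -0.79 ± 0.18 (adjusted p = 0.000380) at d35 and -0.61 ± 0.21 (adjusted p = 0.0254) at d42. The d42 call had the highest p, and without mouse 1, 5 or 7 of d42 it was lost, with an adjusted p of up to 0.0585, as it was without a filter on low counts (adjusted p = 0.0562). No step between consecutive BLEO-IPF days passed the test, nor did d42 against d14 (0.37 ± 0.20, adjusted p = 0.142). In the order of group medians, from d35 upward through d28, d14, d21, d42 and d7 to CTRL, only the step from d7 to CTRL passed.

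Inmt (ENSMUSG00000003477, chr6:55170626-55175043, minus strand) encodes indolethylamine N-methyltransferase, which methylates tryptamine and related amines. For Inmt, the lowest, median and highest CPM were 1552, 1868 and 2425 in CTRL, 547, 739 and 1695 at d7 and 186, 441 and 738 at d14. Later they were 195, 606 and 1101 at d21, at d28 203, 604 and 1636, at d35 384, 926 and 1315 and at d42 564, 862 and 1534. All mice of d14, d21, d35 and d42 lay below the lowest CTRL mouse, while 1 mouse of d7 and 1 of d28 reached the CTRL range. Inmt had the most negative log2FC of the 10 markers on each of the 6 days, with differences between markers not tested. The log2FC was -1.19 ± 0.29 (adjusted p = 0.000440) at d7, -2.16 ± 0.28 (adjusted p = 5.07e-10) at d14, -1.73 ± 0.27 (adjusted p = 1.96e-07) at d21, -1.35 ± 0.27 (adjusted p = 4.63e-05) at d28, -1.14 ± 0.27 (adjusted p = 0.000673) at d35 and -1.06 ± 0.32 (adjusted p = 0.0111) at d42. The level fell further from d7 to d14, with a log2FC of -0.97 ± 0.27 (adjusted p = 0.00844), in a comparison that called 17.0% of all genes. It rose from d14 to d42, with 1.10 ± 0.29 (adjusted p = 0.00248), in a comparison that called 34% of all genes. It had not returned to CTRL by d42.

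Ces1d (ENSMUSG00000056973, chr8:93166068-93197838, minus strand) encodes a carboxylesterase of the endoplasmic reticulum that hydrolyses esters and triacylglycerol. Ces1d levels had a lowest, median and highest CPM of 664, 776 and 879 in CTRL, 396, 537 and 676 at d7 and 186, 365 and 511 at d14. At the later times the values were 222, 401 and 549.8 at d21, at d28 209, 455 and 582, at d35 417, 479.8 and 672 and at d42 376, 542 and 583. On d14, d21, d28 and d42 no mouse overlapped with CTRL, and on d7 and d35 a single mouse did. The log2FC was -0.51 ± 0.16 (adjusted p = 0.00601) at d7, -1.14 ± 0.15 (adjusted p = 1.49e-09) at d14, -1.04 ± 0.15 (adjusted p = 3.26e-08) at d21, -0.83 ± 0.15 (adjusted p = 8.89e-06) at d28, -0.60 ± 0.15 (adjusted p = 0.00149) at d35 and -0.61 ± 0.18 (adjusted p = 0.00843) at d42. As for Inmt, the level fell between d7 and d14 (-0.63 ± 0.15, adjusted p = 0.00225) and was higher at d42 than at d14 (0.54 ± 0.17, adjusted p = 0.00895).

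Carboxylesterases of the same cluster were examined because they resemble Ces1d in sequence. No stretch of 75 bases of Ces1d was shared with another gene. Of the 6 paralogs, Ces1a and Ces1c were too scarce to test, with at most 3 and 9 counts per library, and Ces1b, Ces1e, Ces1f and Ces1g were all lower on d7 to d35. At d14 the log2FC was -1.43 ± 0.30 (adjusted p = 4.58e-05) for Ces1b, -1.88 ± 0.21 (adjusted p = 4.55e-12) for Ces1e, -2.25 ± 0.37 (adjusted p = 4.07e-07) for Ces1f and -1.61 ± 0.28 (adjusted p = 1.12e-06) for Ces1g. Their CTRL levels, at 1.47 ± 0.301 CPM (SD, n = 10) for Ces1b and 15.7 ± 4.22 for Ces1g, were far below that of Ces1d.

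Npnt (ENSMUSG00000040998, chr3:132881745-132950291, minus strand) encodes nephronectin, a basement membrane protein that binds integrin alpha 8 beta 1. Npnt stood at a lowest, median and highest CPM of 988, 1077 and 1168 in CTRL, 614, 694 and 855 at d7 and 433, 759 and 1056 at d14. At d21 the values were 442, 873 and 1091, at d28 436, 846 and 1177, at d35 518, 932 and 1191 and at d42 752, 819 and 1137. d7 lay below CTRL in every mouse, and from d14 the groups spread wide, with the highest mouse of each inside or above the CTRL range. The log2FC was -0.55 ± 0.15 (adjusted p = 0.00130) at d7, -0.49 ± 0.14 (adjusted p = 0.00170) at d14, -0.44 ± 0.14 (adjusted p = 0.00562) at d21 and -0.37 ± 0.14 (adjusted p = 0.0246) at d28. The calls ended there: the values were -0.27 ± 0.14 (adjusted p = 0.126) at d35 and -0.29 ± 0.16 (adjusted p = 0.174) at d42. Without mouse 5 of d28 the d28 call was lost (adjusted p = 0.0612), and it was also lost without a filter on low counts (adjusted p = 0.0525). A fit of only the groups compared called Npnt lower at d35 (adjusted p = 0.0482) and at d42 (adjusted p = 0.00404). In the order of its group medians, no pair of neighbours passed the test.

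The receptor subunit for nephronectin, Itga8, is itself a marker of alveolar fibroblasts. It stood at 461 ± 23.7 CPM in CTRL (SD, n = 10). Its log2FC was -1.01 ± 0.15 (adjusted p = 1.94e-07) at d7, -1.21 ± 0.15 (adjusted p = 1.04e-10) at d14, -0.84 ± 0.15 (adjusted p = 3.88e-06) at d28 and -0.72 ± 0.17 (adjusted p = 0.00128) at d42. Ligand and receptor transcripts were thus both called lower on d7 to d28, and on d35 and d42 only Itga8 passed the test. Whether their changes differed was not tested.

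Limch1 (ENSMUSG00000037736, chr5:66745827-67057158, plus strand) encodes a LIM and calponin homology domain protein that activates non-muscle myosin II. The Limch1 levels, as lowest, median and highest CPM, were 1078, 1139.7 and 1240.04 in CTRL, 712, 761 and 953 at d7 and 557, 834 and 1094 at d14. d21 followed with 544, 796 and 887, d28 with 489, 793 and 1045, at d35 588, 833 and 1055 and at d42 776, 835 and 1045. All mice lay below the lowest CTRL mouse on d7, d21, d28, d35 and d42, and 11 of 12 at d14. The log2FC was -0.55 ± 0.10 (adjusted p = 6.29e-06) at d7, -0.42 ± 0.095 (adjusted p = 0.000106) at d14, -0.61 ± 0.095 (adjusted p = 1.68e-07) at d21, -0.50 ± 0.095 (adjusted p = 2.01e-05) at d28, -0.49 ± 0.095 (adjusted p = 3.86e-05) at d35 and -0.38 ± 0.11 (adjusted p = 0.00861) at d42. Unlike Inmt and Ces1d, its level at d42 did not pass the test against d14 (0.042 ± 0.11, adjusted p = 0.784). The decrease was small, and on d14, d28, d35 and d42 it was under 0.5 on the log2 scale.

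Plin2 (ENSMUSG00000028494, chr4:86648386-86670060, minus strand) encodes perilipin 2, a coat protein of lipid droplets, and was the only alveolar marker called higher than CTRL. In CPM, the lowest, median and highest Plin2 values were 84.9, 103 and 112 in CTRL, 139, 174 and 209 at d7 and 153, 175 and 219 at d14. From d21 on they were 139, 186 and 251, at d28 116, 150.2 and 254, at d35 121, 154 and 214 and at d42 144, 183 and 253. In all 65 BLEO-IPF mice the level was above that of the highest CTRL mouse. The log2FC was 0.75 ± 0.11 (adjusted p = 8.65e-08) at d7, 0.78 ± 0.11 (adjusted p = 4.43e-09) at d14, 0.89 ± 0.11 (adjusted p = 1.82e-10) at d21, 0.65 ± 0.11 (adjusted p = 1.39e-06) at d28, 0.63 ± 0.11 (adjusted p = 3.78e-06) at d35 and 0.85 ± 0.12 (adjusted p = 1.48e-07) at d42. The BLEO-IPF groups did not pass the test against each other in the order of their medians.

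The other 14 genes of lipid droplets and lipolysis moved in either direction. At d14, 2 of them were called higher and 7 lower, with a median log2FC of -0.52, and at d28 5 were higher and 2 lower, with a median of 0.29. Their summed level was 461 to 547 CPM in CTRL, with a median of 514 CPM. At d28 it spread from 389 to 1647 CPM, and its median of 461 CPM was below that of CTRL. Pnpla2, the adipose triglyceride lipase, had the highest CTRL level of the list (136 ± 14.4 CPM, SD, n = 10) and a log2FC of -0.33 ± 0.12 (adjusted p = 0.0170) at d14. Cidec, which fuses lipid droplets in fat cells, had a log2FC of -2.42 ± 0.68 (adjusted p = 0.00153). Genes of alveolar macrophages, which also hold Plin2, were called higher in 3 and lower in 2 of 6 at d14, and their summed level was 287 to 763 CPM in CTRL and 378 to 1668 CPM at d14. Genes of macrophages derived from monocytes were higher in 5 of 6, with a summed level of 163 to 270.1 CPM in CTRL and 1169 to 8439 CPM at d14. Among them osteopontin (Spp1) had a log2FC of 5.62 ± 0.55 (adjusted p = 7.36e-14). No marker of either list was at 0 in all mice, and their part in the Plin2 difference was not tested.

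Pi16 (ENSMUSG00000024011, chr17:29317680-29330593, plus strand) encodes peptidase inhibitor 16, a secreted or membrane-anchored protein that marks adventitial fibroblasts in many organs. Pi16 had a lowest, median and highest CPM of 24.9, 29.1 and 34.2 in CTRL, 23.99, 36.2 and 50.4 at d7 and 9.04, 22.5 and 42.4 at d14. By d21 the values were 9.37, 15.98 and 31.8, at d28 7.65, 17.99 and 46.4, at d35 14.5, 21.6 and 29.9 and at d42 10.9, 15.1 and 26.1. At d7, 6 mice lay above and 1 below the CTRL range, whereas at d21, 11 of 12 lay below it, and every group overlapped with CTRL. The log2FC was 0.29 ± 0.22 (adjusted p = 0.274) at d7, -0.46 ± 0.21 (adjusted p = 0.0463) at d14, -0.77 ± 0.21 (adjusted p = 0.00135) at d21, -0.54 ± 0.21 (adjusted p = 0.0309) at d28, -0.42 ± 0.21 (adjusted p = 0.118) at d35 and -0.73 ± 0.25 (adjusted p = 0.0222) at d42. Between d7 and d14 the level fell, with a log2FC of -0.75 ± 0.21 (adjusted p = 0.00753).

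Of the Pi16 calls, the d21 call kept its side of the threshold when any mouse was left out. The d14 call was lost without CTRL mouse 1, 5, 7, 8, 9 or 10 or d14 mouse 4, 7, 9, 10 or 12 (adjusted p up to 0.0932), under DESeq2 (adjusted p = 0.0538) and without a filter on low counts (adjusted p = 0.0779). The d28 call was lost without CTRL mouse 8 or d28 mouse 1, 2, 6 or 9 (adjusted p up to 0.0628) and without that filter (adjusted p = 0.0538), and the d42 call without d42 mouse 2 (adjusted p = 0.0554). A fit of only the groups compared called Pi16 higher at d7 (adjusted p = 0.0310) and lower at d35 (adjusted p = 0.00533). Pi16 shares 222 exonic bases with an antisense gene on the opposite strand, AC162182.1, which held 2.34% as many counts, so that a small part of its reads is uncertain.

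Dpp4 (ENSMUSG00000035000, chr2:62330073-62412231, minus strand) encodes dipeptidyl peptidase 4 (CD26), a membrane exopeptidase that cleaves incretins and chemokines. For Dpp4, lowest, median and highest CPM were 139.9, 158 and 177 in CTRL, 73.2, 104 and 124 at d7 and 38.6, 94.2 and 122 at d14. For d21 they were 64.7, 117 and 139.97, at d28 41.8, 135 and 161, at d35 81.2, 134 and 155 and at d42 113, 149.6 and 178. All mice of d7 and d14 lay below the lowest CTRL mouse, 11 of 12 did at d21, 7 of 12 on d28 and d35, and 2 of 7 at d42. The log2FC was -0.63 ± 0.17 (adjusted p = 0.00193) at d7, -0.94 ± 0.16 (adjusted p = 1.16e-06) at d14 and -0.53 ± 0.16 (adjusted p = 0.00458) at d21, and then -0.37 ± 0.16 (adjusted p = 0.0585) at d28, -0.30 ± 0.16 (adjusted p = 0.162) at d35 and -0.088 ± 0.19 (adjusted p = 0.775) at d42. The rise from d14 to d42 was 0.86 ± 0.18 (adjusted p = 0.000154) as log2FC. The d28 difference lay close to the threshold: it was called when any of 9 mice was left out (d14 mouse 3 or 8, d21 mouse 5 or 10, or d28 mouse 3, 7, 8, 10 or 11; adjusted p down to 0.0367). A fit of only the groups compared also called d35 (adjusted p = 0.00748).

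Of the enzymes related to Dpp4, Fap, a protease of activated fibroblasts, stood at 1.18 ± 0.525 CPM in CTRL (SD, n = 10) and moved in the other direction, with a log2FC of 1.62 ± 0.26 (adjusted p = 2.31e-07) at d14. Dpp8, an intracellular relative, had a log2FC of -0.17 ± 0.073 (adjusted p = 0.0381) on that day. The 3 related enzymes together were split into 2 higher and 1 lower at d14.

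Cd248 (ENSMUSG00000056481, chr19:5068078-5070682, plus strand) encodes endosialin, a transmembrane glycoprotein of stromal cells and pericytes. Cd248 had a lowest, median and highest CPM of 15.3, 17.2 and 21.8 in CTRL, 24.1, 31.9 and 41.7 at d7 and 26.7, 48.3 and 95.8 at d14. In the mice of d21 they were 16.98, 31.2 and 108, at d28 16.1, 29.02 and 82.8, at d35 14.8, 19.9 and 40.7 and at d42 13.4, 17.4 and 21.5. All mice of d7 and d14 lay above the highest CTRL mouse, 10 of 12 at d21, 7 of 12 at d28, 4 of 12 at d35 and none of 7 at d42. The log2FC was 0.84 ± 0.27 (adjusted p = 0.00824) at d7, 1.69 ± 0.26 (adjusted p = 1.16e-07) at d14, 1.2952 ± 0.26 (adjusted p = 2.85e-05) at d21 and 0.92 ± 0.26 (adjusted p = 0.00314) at d28, followed by 0.21 ± 0.26 (adjusted p = 0.576) at d35 and -0.015 ± 0.30 (adjusted p = 0.979) at d42. The level rose from d7 to d14 (0.85 ± 0.25, adjusted p = 0.0149) and fell from d14 to d42 (-1.70 ± 0.30, adjusted p = 1.24e-05). All mice of d42 lay below all mice of d14 for Cd248, as for 2.68% of all genes, and this held for none of the other 9 markers.

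Ly6a (ENSMUSG00000075602, chr15:74994877-74998031, minus strand) encodes Sca-1, a protein linked to the membrane by a glycolipid anchor and found on fibroblasts, endothelium and blood cells. The Ly6a values, as lowest, median and highest CPM, were 329.8, 387 and 516 in CTRL, 465, 613 and 852 at d7 and 441, 511 and 709.6 at d14. Thereafter they were 322, 491 and 561 at d21, at d28 351, 454 and 545, at d35 309.6, 387 and 530.4 and at d42 360.2, 437 and 477. At d7, 9 of 10 mice lay above all CTRL mice, 5 of 12 did at d14, and at d42 none did. Ly6a was highest at the first time: the log2FC was 0.67 ± 0.092 (adjusted p = 1.35e-08) at d7, 0.44 ± 0.088 (adjusted p = 1.79e-05) at d14 and 0.26 ± 0.088 (adjusted p = 0.00975) at d21, against 0.15 ± 0.088 (adjusted p = 0.169) at d28, -0.002 ± 0.088 (adjusted p = 0.991) at d35 and 0.085 ± 0.10 (adjusted p = 0.577) at d42. The step from d7 to d14 was -0.23 ± 0.088 (adjusted p = 0.0554) and was called when any of 10 mice was left out (CTRL mouse 2, d7 mouse 1, 2 or 4, d14 mouse 4, 8 or 11, d21 mouse 7 or 8, or d35 mouse 9; adjusted p down to 0.0205). Between d14 and d42 the level fell, with a log2FC of -0.35 ± 0.10 (adjusted p = 0.00381).

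Ly6a belongs to a cluster of similar genes, and 6.33% of its 75-base stretches also occur in Ly6c1 or Ly6i, so that a small part of its reads could belong to these. Ly6c1, a marker of endothelium and monocytes, had a log2FC of 1.12 ± 0.14 (adjusted p = 1.89e-09) at d7, 0.98 ± 0.14 (adjusted p = 7.52e-09) at d14 and 0.35 ± 0.16 (adjusted p = 0.0846) at d42. Ly6i was scarce in CTRL (1.700 ± 0.813 CPM, SD, n = 10) and was called higher only on d35 and d42, with a log2FC of 1.93 ± 0.31 (adjusted p = 2.97e-06) at d42. Ly6d, an epithelial and lymphoid member, had -1.09 ± 0.26 (adjusted p = 0.000236) at d14, while Ly6e had 0.17 ± 0.072 (adjusted p = 0.0382) and Ly6c2 0.25 ± 0.16 (adjusted p = 0.163). Ly6g, with at most 6 counts per library, was not tested. Of the 7 endothelial genes examined, none was called higher and 5 were called lower at d7, when their summed level was 2115 to 2792 CPM against 3208 to 4252 CPM in CTRL. None of them was at 0 in all mice, and their part in the Ly6a difference was not tested.

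Further markers of the same cells were examined as lists chosen with earlier results of these data known. The list counts here and below stand beside the shares of all genes called, 45.8% at d7, 62.4% at d14 and 24.7% at d42. Of 10 other alveolar fibroblast genes, 0 were called higher and 5 lower at d7, 1 and 6 at d14, and 0 and 6 at d42. Their median log2FC was -0.38 at d14, beside 0.0079 for all genes tested. The amino acid transporter Slc7a10 changed most at d14, by -2.11 ± 0.46 (adjusted p = 5.77e-05) from 26.7 ± 4.03 CPM in CTRL (SD, n = 10). Of 14 other adventitial genes, 7 were higher and 3 lower at d7 and 6 and 4 at d14, with a median log2FC of 0.32. Within this list, as among the 4 adventitial markers, genes moved in either direction. More of the list were called higher than lower on d7 and d14. The genes named here, picked for the largest change at d14 or the highest CTRL level, were among those called lower. Igfbp6, which binds insulin-like growth factor 2, changed by -1.79 ± 0.22 (adjusted p = 9.29e-11) at d14. Sema3c, a secreted semaphorin with the highest CTRL level of the list, changed by -0.75 ± 0.16 (adjusted p = 0.000126) at d7 and 0.25 ± 0.18 (adjusted p = 0.315) at d42.

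Of 9 genes found in most fibroblasts, 6 were called higher and 1 lower at d14, with a median log2FC of 1.08. Col1a2, a chain of type I collagen, had a log2FC of 2.30 ± 0.26 (adjusted p = 8.15e-12) and Mgp, the matrix Gla protein, 1.70 ± 0.17 (adjusted p = 8.24e-14). All 10 genes of the fibrotic fibroblast list, which mark matrix-producing and contractile cells, were higher at d14, with a median of 2.49. At d42 the median of this list was 0.75 and 4 of 10 genes were called. Tenascin C (Tnc) had a log2FC of 4.10 ± 0.40 (adjusted p = 1.27e-13) at d14 and Col3a1 2.49 ± 0.19 (adjusted p = 1.15e-17). Of 6 genes of smooth muscle and pericytes, 3 were higher and 3 lower at d14, and Myh11, the smooth muscle myosin, had -0.64 ± 0.11 (adjusted p = 4.52e-07). Of 5 mesothelial genes, only mesothelin (Msln) was called higher at d14, at 1.41 ± 0.25 (adjusted p = 2.16e-06), and none lower, with a median of 0.018.

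**Figure D3:**
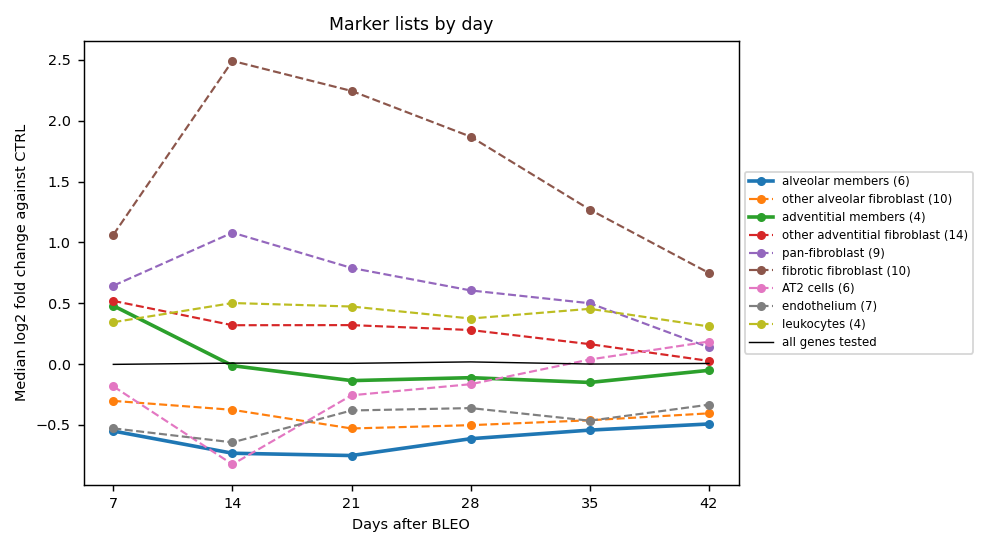
Median log2FC against CTRL of the alveolar and adventitial markers (solid lines) and of other marker lists (dashed lines) by day after BLEO. Numbers in brackets are the genes tested in each list, and the thin black line is the median of all genes tested. The fibrotic fibroblast list peaks at 2.49 at d14, and the median of the alveolar markers stays between -0.75 and -0.49. The median of the adventitial markers is 0.48 at d7 and near 0 from d14. Single adventitial markers moved in either direction, from -0.94 to 1.69 at d14.

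Genes of other cell types that share the markers were counted as well. Of all genes tested, 32.4% were called higher and 29.9% lower at d14, and 13.7% and 11.0% at d42. Of 5 genes of alveolar type 1 cells, which also hold Npnt and Limch1, 1 was called higher and 2 lower at d14, and their summed level was 2885 to 4209 CPM in CTRL, 2073 to 3635 CPM at d14 and 3405 to 4051 CPM at d42. Rtkn2 of this list had a log2FC of -0.96 ± 0.17 (adjusted p = 1.94e-06) at d14, and Ager, its most abundant gene, -0.16 ± 0.12 (adjusted p = 0.241). Of 6 genes of alveolar type 2 cells, 5 were lower at d14 and none was lower on any other day. Their summed level was 22100.5 to 26998 CPM in CTRL, 6177 to 23008 CPM at d14 and 23712 to 29849.9 CPM at d42, and surfactant protein C (Sftpc) had a log2FC of -0.88 ± 0.18 (adjusted p = 2.75e-05) at d14, and surfactant protein A (Sftpa1) -1.19 ± 0.22 (adjusted p = 3.15e-06). At d42, when Tcf21, Inmt, Ces1d and Limch1 were still called lower, the AT2 list had a median log2FC of 0.19. On that day the endothelial list had a median of -0.33, with 3 of 7 genes called lower and 0 higher. The club cell list had a median of -0.61, with 0 of 3 genes called. All 3 club cell genes were lower at d14, among them Scgb1a1 at -1.61 ± 0.22 (adjusted p = 3.56e-09), with a summed level of 2305 to 15895 CPM against 20529 to 27848 in CTRL.

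Among blood cells, 2 of 4 general leukocyte genes were higher at d14, with a summed level of 549 to 942 CPM against 406 to 579 in CTRL. Laptm5, a lysosomal protein of these cells, had a log2FC of 1.04 ± 0.12 (adjusted p = 2.51e-11), while Ptprc (CD45) had 0.0051 ± 0.11 (adjusted p = 0.971). Of 5 T cell genes, a cell type that also holds Dpp4, none was higher and 1 was lower at d14, with a summed level of 23.6 to 106 CPM against 34.98 to 73.02. Of the 3 tested B and plasma cell genes, 1 was higher and 2 were lower at d14, with a summed level of 20.1 to 281 CPM against 52.7 to 113. Of 7 interferon-response genes, 4 were higher and 1 lower at d7, and Isg15 had 1.1998 ± 0.20 (adjusted p = 1.73e-06). No gene of these lists was at 0 in all mice of a group. The part of these cells in the results for the markers was not tested.

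Mice of the same group differed, and it was asked which markers moved together from mouse to mouse. For each marker the group mean of log2 CPM was subtracted, so that the course over time did not enter, and the 75 mice were compared by within-group permutation of 100000 resamples, two-sided, with adjustment over 45 pairs. The smallest p these permutations can give is 1e-05. Values from the same library share its depth and scaling. By Pearson's r, 27 of the 45 pairs passed, 15 positive and 12 negative, and 31 passed by Spearman's rho.

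Over all groups, the alveolar markers Tcf21, Npnt, Inmt and Ces1d were related to each other in all 6 pairs, though not in every group. In CTRL, r was -0.171 for Npnt and Inmt and -0.481 for Npnt and Ces1d. At d7 it was -0.211 for Tcf21 and Ces1d. Each of these pairs was positive in the other 6 groups. The closest pair was Tcf21 and Inmt (Pearson's r = 0.886, Spearman's rho = 0.877, each with a permutation adjusted p = 2.81e-05), with 0.887 after leaving out the 2 farthest mice. Within groups, this r was 0.748 in CTRL, 0.369 at d7, 0.918 at d14, 0.974 at d21, 0.948 at d28, 0.860 at d35 and 0.937 at d42. Inmt and Ces1d followed (Pearson's r = 0.883, Spearman's rho = 0.870, permutation adjusted p = 2.81e-05; 0.854 without the 2 farthest mice), positive in all 7 groups. For Tcf21 and Npnt the pooled values were Pearson's r = 0.782, Spearman's rho = 0.800 (permutation adjusted p = 2.81e-05), but the r within groups was -0.313 in CTRL and 0.121 at d7, and 0.733 to 0.910 from d14 on.

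The relations of Limch1 varied between groups. Its r with Tcf21 was -0.709 in CTRL, -0.331 at d14 and 0.821 at d21. In the same groups its r with Ces1d was -0.827, -0.380 and 0.842, and with Inmt -0.577, -0.159 and 0.857. Over all groups, Limch1 was related to Npnt (Pearson's r = 0.727, Spearman's rho = 0.612, permutation adjusted p = 2.81e-05), with 0.661 after leaving out the 2 farthest mice. It also passed with Inmt (Pearson's r = 0.410, Spearman's rho = 0.393, permutation adjusted p = 0.00495 for r) and with Tcf21 (Pearson's r = 0.369, Spearman's rho = 0.366, permutation adjusted p = 0.0131 for r), and with Ces1d by Spearman's rho alone (0.323, permutation adjusted p = 0.0187, against r = 0.255). Plin2 was negatively related to Inmt, Tcf21, Npnt and Ces1d. With Inmt the values were Pearson's r = -0.407, Spearman's rho = -0.376 (permutation adjusted p = 0.00459 for r), with 0.445 in CTRL, 0.262 at d14 and -0.673 at d35. The pooled r was -0.324 with Tcf21, -0.311 with Npnt and -0.337 with Ces1d, while Limch1 did not pass by Pearson's r (-0.267; -0.373 without the 2 farthest mice) but passed by Spearman's rho (-0.324, permutation adjusted p = 0.0179). With Ly6a it was positive, at 0.303.

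Dpp4 was positively related to 5 alveolar markers, and passed with neither Pi16 (r = -0.0377) nor Ly6a (-0.218). With Npnt the values were Pearson's r = 0.836, Spearman's rho = 0.840 (permutation adjusted p = 2.81e-05), with 0.801 without the 2 farthest mice. Within groups this r was -0.0637 in CTRL and 0.819, 0.849, 0.976, 0.891, 0.856 and 0.736 on the days from 7 to 42. The pooled r of Dpp4 was 0.722 with Tcf21, 0.680 with Inmt, 0.736 with Ces1d and 0.445 with Limch1. Within groups, r with Limch1 was -0.177 in CTRL, -0.384 at d7 and -0.148 at d14, and positive in the other 4 groups. It was -0.152 with Tcf21 at d7 and -0.119 with Inmt in CTRL, and positive in the other 6 groups for each. With Cd248 the pooled r of Dpp4 was negative (Pearson's r = -0.824, Spearman's rho = -0.787, permutation adjusted p = 2.81e-05), from -0.959 at d21 to -0.747 at d42, but 0.139 in CTRL and 0.0915 at d7. Pi16 passed with Plin2 alone (Pearson's r = -0.440, Spearman's rho = -0.401, permutation adjusted p = 0.00117; -0.378 without the 2 farthest mice), and the groups of d28 and d35 had -0.850 and -0.869 against -0.0360 at d14. By Spearman's rho, Pi16 also passed with Inmt and Ces1d.

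**Figure D4:**
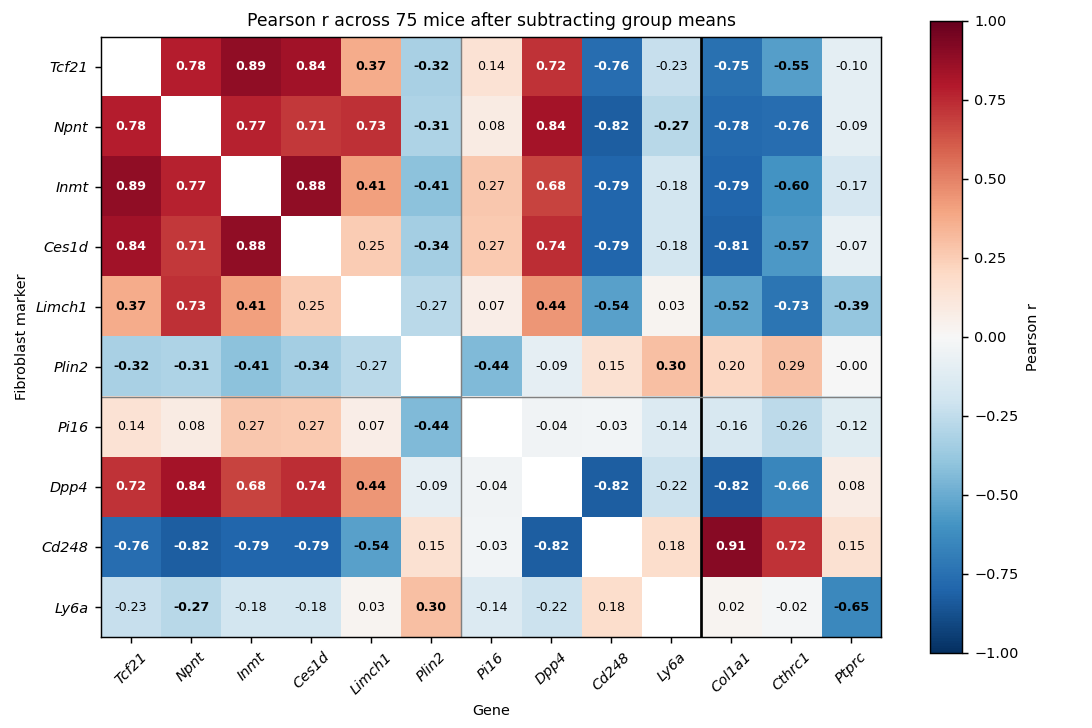
Pearson's r across 75 mice after subtracting group means, for each pair of markers (left of the thick line) and for each marker with Col1a1, Cthrc1 and Ptprc (right). The color runs from -1 (blue) to 1 (red), bold values passed an adjusted permutation p of 0.05 and thin lines divide alveolar from adventitial markers. Dpp4 is positive with 5 alveolar markers, Cd248 is negative with the same 5, and Pi16 passes with Plin2 alone.

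The markers were then set against Col1a1, the main chain of type I collagen, Cthrc1, a marker of matrix-producing fibroblasts, and Ptprc, a leukocyte gene, in 30 relations adjusted together. Of these, 2 positive and 14 negative ones passed. Cd248 was related to Col1a1 (Pearson's r = 0.910, Spearman's rho = 0.878, permutation adjusted p = 2.50e-05; 0.888 without the 2 farthest mice), with 0.453 in CTRL and 0.778 to 0.990 in the BLEO-IPF groups. Cd248 was also related to Cthrc1 (Pearson's r = 0.724, Spearman's rho = 0.656, permutation adjusted p = 2.50e-05). Here the r was -0.412 in CTRL and 0.413 to 0.972 in the BLEO-IPF groups.

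Tcf21, Npnt, Inmt, Ces1d, Limch1 and Dpp4 were negatively related to Col1a1. For Dpp4 the values were Pearson's r = -0.825, Spearman's rho = -0.821 (permutation adjusted p = 2.50e-05; -0.807 without the 2 farthest mice), with 0.0716 at d7, -0.902 at d14 and -0.954 at d42. For Ces1d they were Pearson's r = -0.812, Spearman's rho = -0.859 (permutation adjusted p = 2.50e-05; -0.819 without the 2 farthest mice), negative in all 7 groups including CTRL at -0.870. Limch1 had 0.854 in CTRL, 0.0754 at d14 and -0.859 at d21. Npnt had 0.355 in CTRL and 0.120 at d7, against -0.913 to -0.762 from d14 on. Plin2 (r = 0.205), Pi16 (-0.160) and Ly6a (0.0247) did not pass with Col1a1.

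Ly6a was negatively related to Ptprc (Pearson's r = -0.648, Spearman's rho = -0.636, permutation adjusted p = 2.50e-05; -0.593 without the 2 farthest mice). The r was negative in all 7 groups, from -0.864 at d7 to -0.332 at d28, with -0.779 in CTRL. Of the other markers, only Limch1 passed with Ptprc (Pearson's r = -0.385, Spearman's rho = -0.346, permutation adjusted p = 0.00174).

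**Figure D5:**
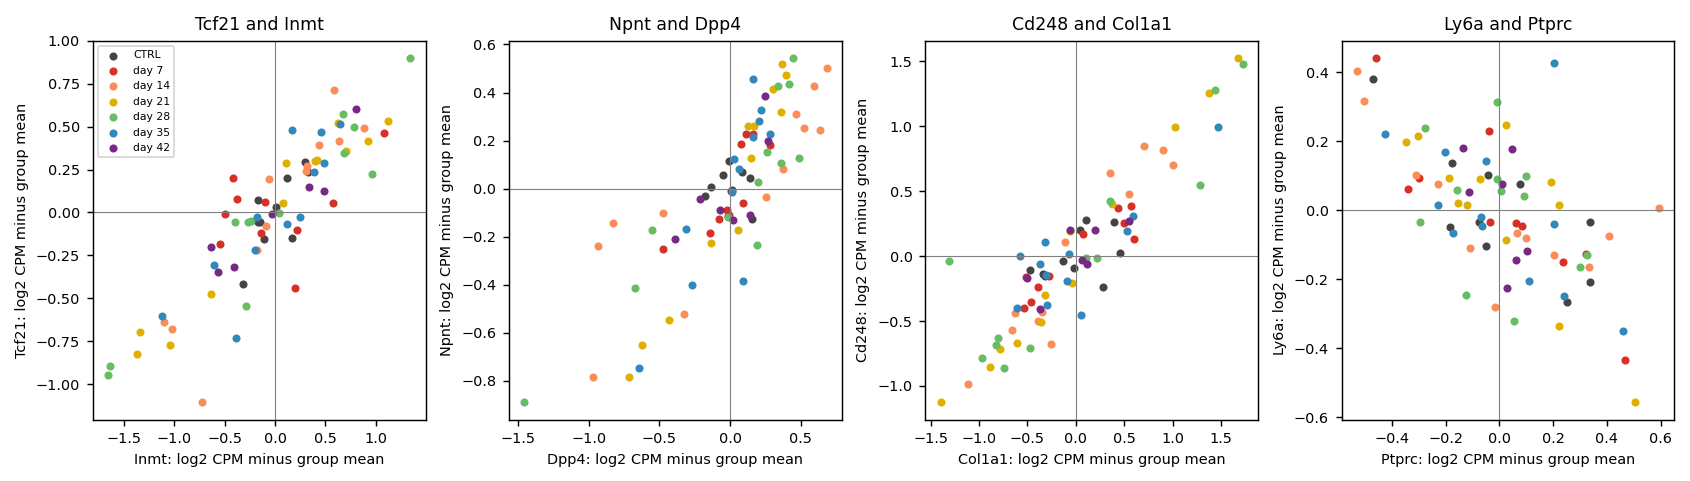
Deviation of each mouse from its group mean for 4 pairs of genes. Both axes are log2 CPM minus the group mean, each point is 1 of 75 mice and colors give the group. Tcf21 with Inmt, Npnt with Dpp4 and Cd248 with Col1a1 run upward (r of 0.886, 0.836 and 0.910), and Ly6a with Ptprc runs downward (r of -0.648).

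The genes whose course over the 7 groups was most like that of each marker were found by the root mean square difference of the group means of log2 CPM from CTRL, among 14525 named genes. For Tcf21 they were G0s2 (0.034), Sorbs2os and Amph, for Npnt Maml2 (0.032), Dyrk2 and Arhgef12, and for Limch1 Rora (0.052), Lrrc4c and Cyth3. For Inmt they were Ces1f (0.129), Atp2b2 and Ptgfr, and for Ces1d Fam57b (0.078), Dpep1 and Klri2. By this measure, which is not scaled to the size of the change, Inmt lay farther from its closest gene than Tcf21 or Npnt did. Plin2 was followed by Gsdme (0.080), Tubb2a and Lpcat3. For Pi16 the closest were Upk1a (0.111), Ugt8a and Gpr179, for Dpp4 Rph3al (0.058), Rasgef1a and Mtcl1, for Cd248 Xkr5 (0.087), Zfp469 and Sox9, and for Ly6a Plcxd2 (0.033), Zcwpw1 and Slc35g1.

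Between consecutive BLEO-IPF days, 4 of the 10 markers were called from d7 to d14 (17.0% of all genes), namely Inmt, Ces1d and Pi16 lower (7.55%) and Cd248 higher (9.48%). No marker was called from d14 to d21 (1.03% of all genes), from d21 to d28 (0.727%), from d28 to d35 (1.27%) or from d35 to d42. In that last step 0 genes were called by edgeR's quasi-likelihood test and 0 by DESeq2, and 957 had an unadjusted p under 0.05. From d14 to d42, 5 markers were called: Inmt, Ces1d and Dpp4 higher (15.2% of all genes), Cd248 and Ly6a lower (18.8%). Of the 4 markers still called lower at d42 among the alveolar ones, Inmt and Ces1d had thus moved back toward CTRL since d14, while for Tcf21 and Limch1 the same comparison did not pass.

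When the 7 groups were ordered by the median of each marker, 8 of the 60 pairs of neighbours passed the test. Beside the step of Tcf21, these were the steps of Inmt from d14 to d28 and from d35 to CTRL, of Ces1d and Limch1 from d42 to CTRL, of Plin2 from CTRL to d28, of Pi16 from d14 to CTRL and of Cd248 from d7 to d14. For Npnt, Dpp4 and Ly6a no pair of neighbours passed.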

How the data were processed

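RNA of 75 inferior lung lobes (10 CTRL and 65 BLEO-IPF mice) was purified, made into directional polyA libraries and sequenced by the authors, who aligned reads to GRCm38 with STAR 2.7.0f and deposited raw counts per gene. How reads were assigned to genes, by which program and with what strand setting, is not given in the sources used here. All 55536 identifiers were found in GENCODE M21. Library totals of 9240291 to 14665247 limit the precision.

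Groups were taken from the labels. Counts were tested in R 4.3.3 with edgeR 4.0.16 (filterByExpr, TMM, quasi-likelihood F test, 1 mean per group, all 75 mice), adjusted by the Benjamini-Hochberg method over 16221 genes at 0.05. Comparisons were of the 6 termination days against CTRL and of 6 pairs of days. Relations used log2 CPM (prior count of 2) minus group means and 100000 permutations in numpy 2.4.6. Scripts were tested on simulated data. Alternatives were DESeq2 1.42.0, other scaling and filters, only the groups compared, a replicate block, a log2FC minimum of 0.5 and leaving out each mouse.

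The markers and the 20 other gene lists (136 genes, 132 tested) were chosen with earlier results of these data known. The genes named are all markers, from each list the gene highest in CTRL or changed most on day 14, genes related to a marker, and the 3 genes most like each marker in course. Every library is a separate mouse.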

Additional observations from a re-analysis of the deposited data

Results flagged for a closer look

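In 30 combinations of marker and group with 4 to 10 mice, 2 held a mouse far from the others by Dixon's criterion, which chance gives in about 1 of 20 groups. Mouse 5 of day 7 had the highest Limch1 level of its group, at 953 CPM, still below the lowest CTRL mouse. CTRL mouse 10 had the lowest Plin2 level of its group, at 84.9 CPM.

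For 5 markers the change from CTRL differed between day 14 and day 42 by edgeR's quasi-likelihood test of the difference itself. It was less negative on day 42 for Inmt by 1.10, Ces1d by 0.54 and Dpp4 by 0.86 on the log2 scale. It was lower on day 42 for Cd248, with a difference of -1.70, and for Ly6a, with -0.35. Since CTRL cancels in this difference, it equals the direct comparison of the 12 mice of day 14 with the 7 of day 42.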

How the results depend on the processing

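Each of 120 log2FC values (10 markers in 12 comparisons) was recomputed under every alternative, and 119 kept direction and call with a minimum of 10 counts in every mouse, 118 with DESeq2, 117 each with library size only and upper quartile factors, 116 without a filter, 114 with only the groups compared and 109 with a log2FC minimum of 0.5. The count of called markers moved by over 1.5 times in 2 cases: 6 of 10 at d14 with the log2FC minimum, and 8 at d35 with only the groups compared. Leaving out each mouse gave 9 to 10 called markers at d14, 7 to 9 at d28 and 5 to 6 at d42.

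Replicate numbers did not pair the mice: over 204 pairs of mice with the same number the median correlation of deviations was 0.0057, 63 pairs were over 0.1 and 7 of 75 mice correlated best with their own number. With a replicate block, 9 markers were called at d28 in place of 8 and 5 from d7 to d14 in place of 4, and the other counts were the same. These were Dpp4 at d28 and Tcf21 from d7 to d14. Under the block, Npnt from d35 to d42 was 0.021, Ces1d 0.083 and Ly6a at d35 against CTRL 0.0028.

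Values that changed sign lay between -0.13 and 0.18, and none was called in the reported fit. Plin2 from d7 to d14 was -0.0095 with library size only and -0.0023 with upper quartile factors. Ly6a at d35 was 0.014 with library size only, 0.0052 with upper quartile factors, 0.0073 with only the groups compared and 0.00050 with DESeq2. When 1 mouse was left out, Ly6a at d35 ranged from -0.051 to 0.041 and Cd248 at d42 from -0.070 to 0.034. From d7 to d14, Plin2 ranged from -0.014 to 0.058, and from d14 to d21 Npnt from -0.0076 to 0.11. From d28 to d35, Tcf21 ranged from -0.13 to 0.043, Limch1 from -0.043 to 0.050, Plin2 from -0.060 to 0.063 and Dpp4 from -0.011 to 0.12. From d35 to d42, Npnt ranged from -0.093 to 0.025, Inmt from -0.081 to 0.18 and Ces1d from -0.043 to 0.056. From d14 to d42, Limch1 ranged from -0.0025 to 0.078 and Plin2 from -0.0058 to 0.13. The cause was not tested.

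The relations kept their counts within 1 pair: 28 marker pairs passed with library size only and 28 without the 2 farthest mice, against 27. Pi16 and Cd248, with at least 70 and 147 counts per library, carry the most counting error.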
